A study of Mus musculus with 4 samples.

Results

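The 2 arrays of CD1d knockout mice in this series were labelled with the same genotype, tissue and diet, and their difference across genes is described here by its size and by the tissue in which the differing genes are known to be active. The pair is 2 of 4 arrays, chosen by title as the arrays of the knockout low-fat group. Every gene with a probe set of its own was compared, 18820 in all, and 11292 of them, those whose mean over the arrays reached a log2 intensity of 5.45, were counted. By their labels, both knockout (KO) arrays held epididymal adipose tissue of CD1d-null mice, backcrossed to C57BL/6J for 10 to 12 generations and fed a diet with 10 kcal% fat. The other arrays held the same tissue of wild type C57BL/6J mice, 1 on the 10 kcal% fat diet (low-fat) and 1 on a diet with 45 kcal% fat (high-fat). All mice ate chow to an age of 10 to 11 weeks and the test diet for 18 to 19 weeks. Each group's RNA was pooled from 4 to 6 mice, and 100 ng went into cDNA synthesis. Whether separate pools of mice or repeat hybridizations of the same RNA lay behind the KO arrays is not stated in the labels.

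The epididymal fat pad is a visceral depot that lies against the epididymis, the duct in which sperm mature and are stored. Besides fat cells it holds macrophages, T and NKT cells, vessels, fibroblasts and a covering of mesothelial cells, and macrophages gather in it as it enlarges in obesity. CD1d presents lipid antigens to NKT cells, which are absent when it is missing. The epididymal duct is wrapped in smooth muscle, and along its length the epithelium secretes different sets of defensins, protease inhibitors and lipocalins.

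Levels below are log2 intensities, and a difference is KO array 2 minus KO array 1 unless stated. With 1 array on each side no difference has a replicate error and none was tested, so genes are described by size. A group of 4 levels is given in the order wild type low-fat, wild type high-fat, KO array 1, KO array 2. A level under its array's median over all probe sets, which was 5.70, 5.68, 5.71 and 5.68 in that order, lies in the dim part of the range, and a fold against it is read as a lower bound.

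Cd1d1, the disrupted gene, was at 11.80, 11.80, 3.74 and 3.98. It was near the bottom of the range on both KO arrays and high on both wild type arrays, as the genotype labels state. The neighbouring copy Cd1d2 was dim throughout, at 4.61, 4.46, 4.50 and 4.18, and was not counted. The tissue label was checked on 13 fat cell identity genes, whose median level was 12.96, 12.85, 12.90 and 12.86. Of these 13 genes 1 differed by 1.5-fold or more in the KO pair, against 19.3% of all counted genes.

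KO array 2 lay closer to the wild type high-fat array than to the other KO array. Between the KO arrays 2177 genes, 19.3% of those counted, were at least 1.5-fold apart. Between KO array 2 and the wild type high-fat array there were 325 such genes, 2.88% and the fewest of the 6 pairs, with 177 (1.57%) higher and 148 (1.31%) lower. KO array 1 and the wild type high-fat array gave the most, 2806 genes or 24.8%. From the wild type low-fat array, of their own diet, KO array 1 was apart in 785 genes (6.95%) and KO array 2 in 1145 (10.1%). The wild type arrays, which differ in diet, were apart in 1303 (11.5%). These pairs share arrays and were summarized together, and Cd1d1 bears on the genotype label only, so whether KO array 2 went against its diet label was not tested.

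**Figure D1:**
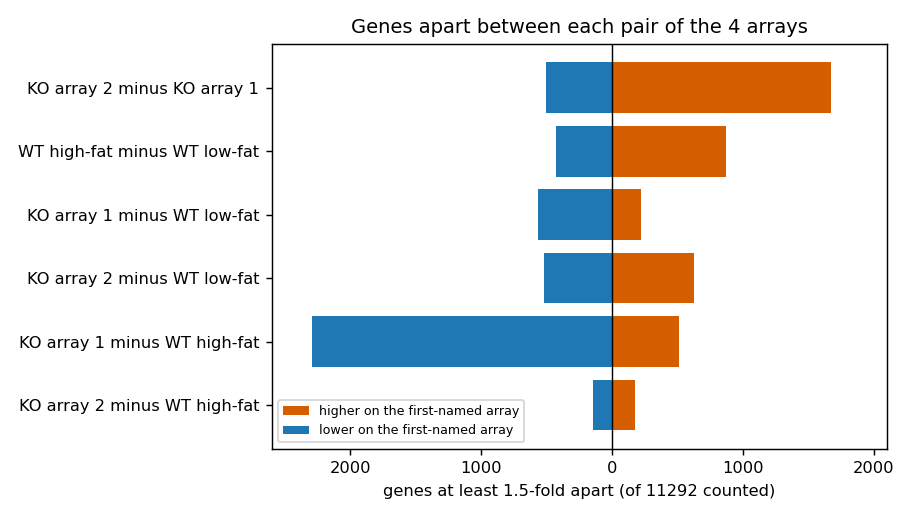
Number of genes at least 1.5-fold apart for each of the 6 pairs of arrays, to the right where the first-named array was higher and to the left where it was lower. The KO pair shows 1674 higher and 503 lower genes, and KO array 2 against the wild type high-fat array the fewest, 177 and 148.

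Most of the genes apart in the KO pair were higher on KO array 2. At 1.5-fold 1674 genes (14.8%) were higher and 503 (4.45%) lower, so 76.9% of the genes apart lay on the higher side, against 65.5% after quantile normalization of the arrays. At 2-fold the counts were 464 (4.11%) and 148 (1.31%). At 4-fold they were 66 (0.584%) and 35 (0.31%), and at 8-fold 22 (0.195%) and 15 (0.133%). The excess of higher genes thus narrowed with size, to 59.5% at 8-fold. The median difference of all counted genes was 0.14, with an SD over genes of 0.54. With the genes divided by mean level into 5 bins of equal number, the median ran −0.01, 0.10, 0.17, 0.22 and 0.22 from dimmest to brightest. Genes at least 1.5-fold lower were most numerous in the dimmest bin, 174 against 74 to 103 in the others.

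Genes with several probe sets allowed a check within the same hybridizations. For the 20 genes at least 2-fold apart that had further probe sets, 37 of 38 of these went in the same direction, 30 of them by at least 1.5-fold. The probe sets were spread unevenly over genes. The 5 of these genes at least 4-fold apart supplied 17 of the 38, and Trdn alone had 19 probe sets on the array. At 1.5-fold or more, 118 genes had 222 further probe sets, of which 200 went in the same direction and 121 did so by at least 1.5-fold. The 2-fold limit fell in a dense stretch of values. Fcgr1, Upk3b and Tmem176b lay just inside it, with log2 differences of 1.0003 to 1.0009, and Vps50, Pdzd8 and Hmox1 just outside, with 0.9974 to 0.9997.

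Macrophage genes were higher on KO array 2. These cells are known by Fc receptors, complement C1q and phagocytic proteins, and in obese fat a lipid-laden type appears around dying fat cells with lysosomal and matrix-degrading genes. Of 21 counted macrophage markers 16 were at least 1.5-fold higher on KO array 2 and 0 lower, and of 15 genes of lipid-associated macrophages 10 were higher and 0 lower. Their median differences were 0.97 and 1.65, against 0.14 for all counted genes. In the wild type pair, high-fat minus low-fat, 15 and 11 of the same genes were at least 1.5-fold higher. Of all counted genes 14.8% were higher and 4.45% lower in the KO pair, and 7.72% were higher in the wild type pair. Epididymal genes, described below, also differed between the KO arrays, and their part in these differences was not tested. In bulk tissue, fewer cells of a type and less RNA per cell cannot be told apart.

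Atp6v0d2, a proton pump subunit of macrophages and osteoclasts, was at 6.28, 10.64, 5.23 and 10.17. The macrophage elastase gene Mmp12 was at 7.01, 11.28, 6.59 and 10.49. Gpnmb, a glycoprotein that foamy macrophages make, was at 8.12, 11.59, 7.44 and 11.21. In each, KO array 2 and the wild type high-fat array were high and the remaining arrays low, with KO array 1 the lowest. The folds of the KO pair were 30.7, 14.9 and 13.6, the first a lower bound. Trem2, a lipid-sensing receptor, was at 6.86, 9.94, 6.52 and 9.53, and the cathepsin gene Ctsk at 7.77, 9.53, 6.62 and 9.13. Ctsk was named after its values were seen.

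The general macrophage genes with the largest differences had the same order of arrays at smaller size. Ctss, a protease of antigen processing, was at 8.47, 10.31, 8.13 and 10.07, and Mpeg1, a pore-forming protein of phagocytes, at 9.15, 10.46, 8.48 and 10.28. The phagosome protein gene Cd68 was at 10.09, 11.61, 9.53 and 11.28. KO array 1 was the lowest of the 4 arrays for each of them. The smallest differences of the list were 0.11 for Cd14 and 0.24 for Lyz1, both named after their values were seen. Not all members kept this order, since Mertk, also named after its values were seen, was at 8.59, 8.71, 8.81 and 9.27 and Lyz1 was highest on the wild type low-fat array.

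Mmp12 is the member of the lipid-associated macrophage and lysosome lists with the largest difference whose promoter held an E-box or an M-box. These motifs are read by basic helix-loop-helix factors of lysosomal and macrophage genes. The M-box TCATGTG was searched on both strands of RefSeq promoters (GRCm38.p6, 250 bases before to 50 after each start) and was present in 4.31% of 27025 genes, 3 of 12 lipid-associated macrophage genes and 2 of 15 lysosomal genes. The E-box CACGTG was present in 8.09% of all genes, 1 of the 12 and 7 of the 15. The 250 bases before the Mmp12 start, chr9:7347124-7347373 on the plus strand, are shown with the M-box in capitals as it reads on this strand, beginning at position −83 from the start. A match is a description of the sequence and says nothing of binding.
Mmp12: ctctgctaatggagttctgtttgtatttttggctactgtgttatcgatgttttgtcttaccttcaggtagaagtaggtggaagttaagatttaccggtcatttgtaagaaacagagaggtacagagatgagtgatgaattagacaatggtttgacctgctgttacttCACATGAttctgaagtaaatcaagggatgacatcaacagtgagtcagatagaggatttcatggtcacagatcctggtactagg

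Other leukocyte lists differed less. Of 12 genes of resident and alternatively activated macrophages 5 were higher and 0 lower, with 0 of the 12 apart in the wild type pair. Of all counted genes 14.8% were higher and 4.45% lower in the KO pair, and 11.5% were apart in the wild type pair. Against that last share, 0 of 12 says little about these cells. The mannose receptor gene Mrc1 was at 9.54, 10.11, 9.09 and 9.97, and the coagulation factor gene F13a1 at 9.67, 9.91, 9.18 and 10.06. Both were lowest on KO array 1, while Retnla, Arg1, Timd4 and Cd163, named after their values were seen, lay between −0.15 and −0.05. Of 10 dendritic cell and MHC class II genes 4 were higher and 0 lower, with H2-Ab1, a class II chain, at 11.18, 11.67, 10.96 and 11.57.

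T, NKT and NK cell genes gave 2 of 10 higher and 0 lower, B cell genes 2 of 8 and 0, and mast cell genes 0 of 6 in either direction. With 14.8% of all counted genes higher, counts this small say little about these cells. Cd2, an adhesion molecule of T and NK cells, was at 6.79, 6.55, 5.79 and 6.51, so KO array 1 alone was low. The B cell adaptor gene Blnk was at 7.20, 8.41, 6.75 and 7.94 and Ms4a1, the B cell antigen CD20, at 6.38, 5.93, 5.64 and 6.38. Monocyte genes divided, with 3 of 5 higher and 1 lower. Ccr2, the chemokine receptor of inflammatory monocytes, was at 7.71, 8.46, 7.24 and 8.53, whereas Plac8 was at 8.33, 6.49, 10.38 and 7.32, highest on KO array 1. Neutrophil and eosinophil genes were mostly too dim to count, with 3 of 13 counted. With no filter 4 of the 13 were lower on KO array 2 and 1 higher, against 4.0% and 9.69% of all genes. The lower ones were S100a9, Ngp, Retnlg and Camp, each highest on KO array 1, and the higher one was S100a8. Ngp was at 3.96, 3.64, 6.14 and 3.82, and Retnlg and Camp were dim on every array. Ngp, Retnlg and Camp were named after their values were seen. The 2 subunits of calprotectin went apart, S100a8 at 5.88, 6.45, 6.66 and 7.56 and S100a9 at 5.16, 5.18, 6.88 and 5.23, so S100a9 stood out on KO array 1 and S100a8 on KO array 2.

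Chemokines and acute phase proteins were higher on KO array 2 in part. Of 15 chemokine and cytokine genes 7 were higher and 1 lower, against 14.8% and 4.45% of all counted genes. The monocyte attractant Ccl2 was at 7.79, 8.82, 6.81 and 8.48 and Il1rn, the interleukin-1 receptor antagonist, at 5.16, 7.05, 4.85 and 6.55. Of 11 acute phase genes 5 were higher and 1 lower. Saa3, a serum amyloid made in fat, was at 6.83, 9.22, 6.43 and 9.78, and the siderophore-binding lipocalin Lcn2 at 7.81, 8.37, 7.92 and 9.76. Both were highest on KO array 2, above the wild type high-fat array. Orm3 went the other way, at 8.91, 8.05, 8.88 and 7.47.

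Matrix and proliferation genes were higher on KO array 2. Of 26 collagen and matrix genes 15 were at least 1.5-fold higher on KO array 2 and 0 lower, with a median difference of 0.80 and a range of 0.25 to 2.11. In the wild type pair 8 of the 26 were higher. Of all counted genes 14.8% were higher and 4.45% lower in the KO pair, and 7.72% were higher in the wild type pair. Col12a1, a fibril-associated collagen, was at 6.70, 7.84, 5.92 and 8.03, and the gelatinase gene Mmp2 at 9.45, 10.44, 8.74 and 10.37. Timp1, which inhibits such proteases, was at 5.85, 7.31, 5.65 and 7.34. Of the 9 members at least 2-fold apart, KO array 1 alone lay more than 1.5-fold below both wild type arrays in 6. Of 11 cell cycle genes 7 were higher and 0 lower, with the proliferation marker Mki67 at 5.88, 7.17, 5.22 and 6.93 and the mitotic kinase gene Aurkb at 5.85, 7.05, 5.47 and 6.82. With no filter 8 of 18 cell cycle genes were higher, against 9.69% of all genes. Fat progenitor and fibroblast genes gave 5 of 15 higher and 0 lower, among them Lum, a proteoglycan of collagen fibrils, at 9.07, 10.11, 8.47 and 10.01.

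Mesothelial markers divided into groups of opposite direction. Of 14 counted, 7 were higher on KO array 2 and 3 lower, against 14.8% and 4.45% of all counted genes. Gpm6a, a membrane glycoprotein, was at 7.99, 8.25, 6.95 and 8.50, the uroplakin gene Upk1b at 8.47, 8.09, 6.97 and 8.24, and Aldh1a2, an enzyme of retinoic acid synthesis, at 6.59, 7.24, 5.88 and 7.05. KO array 1 alone was low in each, and KO array 2 lay inside or near the wild type range. The 3 lower members were the keratin genes Krt8 (−0.97), Krt18 (−1.12) and Krt19 (−1.47), which other epithelia also express. Krt19 was at 7.94, 7.10, 8.63 and 7.16, and the remaining keratin of the list, Krt7, differed by 0.83. Krt8, Krt18 and Krt7 were named after their values were seen.

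Of 15 endothelial markers 0 were higher and 3 lower, against 4.45% of all counted genes lower, with the lipase anchor of capillaries Gpihbp1 at 9.80, 9.07, 10.06 and 9.23 and the cell cycle regulator gene Rgcc at 10.05, 9.44, 10.16 and 9.44. Of 6 pericyte markers 0 were apart in either direction. Lymphatic markers gave 1 of 5 higher, Pdpn, at 9.03, 8.88, 8.28 and 9.10, where 14.8% of all counted genes were higher.

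Fat cell genes showed little difference in identity and a larger one in genes of fat expansion. Fat cell identity genes ranged from −0.29 for Retn, the hormone resistin, to 0.68 for the glycerol channel Aqp7, and Adipoq, which encodes adiponectin, was at 13.18, 13.09, 13.19 and 13.03. Of 9 genes known to be high in enlarging fat 6 were higher on KO array 2 and 0 lower, beside 7 in the wild type pair. Of all counted genes 14.8% were higher in the KO pair and 7.72% in the wild type pair. Sfrp5, a secreted Wnt-binding protein, was at 10.77, 11.81, 10.46 and 11.74. Lep, the gene of leptin, was at 11.85, 12.85, 11.97 and 12.93. In both, the KO arrays lay near different wild type arrays, KO array 1 near low-fat and KO array 2 near high-fat.

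Sterol genes went with this group. Of 15 cholesterol synthesis genes 6 were higher and 0 lower, as in the wild type pair. Hsd17b7, an enzyme late in the pathway, was at 7.06, 8.34, 6.80 and 8.22, and Insig1, a sterol sensor, at 10.64, 11.59, 10.29 and 11.68. Fatty acid and triglyceride synthesis gave 3 of 16 higher and 0 lower, with the desaturase gene Scd2 at 10.76, 12.10, 10.64 and 12.19. Thermogenic fat cell genes gave 1 of 7 higher, the proton channel gene Otop1 at 5.34, 7.55, 5.13 and 7.13, and 1 lower, the lipid droplet gene Cidea at 6.74, 6.05, 6.22 and 5.45. The higher shares of the fatty acid and thermogenic lists are near the 14.8% of all counted genes, so these counts say little about either list.

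**Figure D2:**
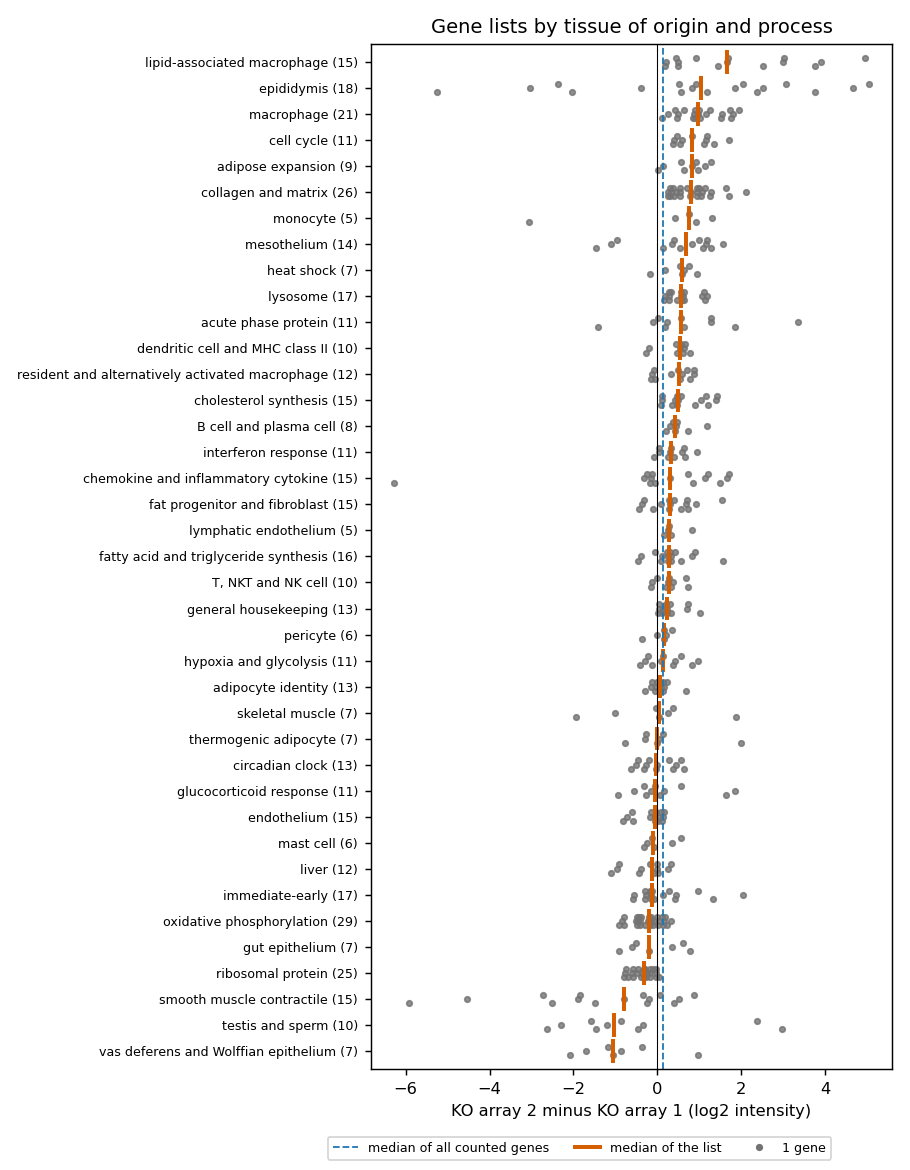
Difference KO array 2 minus KO array 1 (log2 intensity) for each counted gene of the 39 lists with at least 5 counted genes (grey points), with the list median (orange bar) and the median of all counted genes, 0.14 (dashed line). Lipid-associated macrophage genes have the highest median, 1.65, epididymal genes spread from −5.25 to 5.04, and smooth muscle, sperm and vas deferens lists have the lowest medians.

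Contractile smooth muscle genes stood high on KO array 1. Such cells make actin, myosin, calponin and transgelin for contraction of vessels, gut and ducts. Of 15 counted, 8 were lower on KO array 2 by at least 1.5-fold and 1 higher, against 4.45% and 14.8% of all counted genes. The median difference of the list was −0.79. Cnn1, which encodes calponin, was at 8.05, 5.59, 11.03 and 5.12. Actg2, the actin of visceral smooth muscle, was at 6.93, 5.39, 9.70 and 5.17, a 23.0-fold difference and a lower bound. The transgelin gene Tagln was at 8.25, 7.85, 10.16 and 7.65, and the tropomyosin gene Tpm2 at 6.56, 5.85, 8.15 and 5.41. In each, KO array 1 stood above all other arrays, and KO array 2 was the lowest.

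Differences within the list were unequal. All 7 members at least 2-fold apart lay more than 1.5-fold above both wild type arrays on KO array 1 alone. Acta2, the actin shared by vascular smooth muscle, differed by −0.20, Mylk, the myosin light chain kinase, by 0.06, and Synpo2, an actin-binding protein, by 0.87. These 3 genes were named after their values were seen. Vascular markers beside them, the pericyte and endothelial lists, had median differences of 0.16 and −0.05, and genes of the male tract also stood high on KO array 1 in part, as given below. Their part in the smooth muscle difference was not tested.

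The CArG box, read by serum response factor in contractile genes, was searched in the same promoters on both strands. It was present in 1.81% of 27025 genes and in 2 of 13 smooth muscle genes with a promoter entry. Both are shown, and they went in opposite directions. Myl9, the regulatory myosin light chain, was at 9.57, 8.84, 10.62 and 8.74, a difference of −1.88, and Ldb3, a protein of the contractile Z-disc, at 6.47, 6.62, 6.38 and 6.78, a difference of 0.40. Capitals mark the CArG box, which begins at position −161 from the start of Myl9 (chr2:156775214-156775463, plus strand) and at −35 from that of Ldb3 (chr14:34588682-34588931, minus strand).
Myl9: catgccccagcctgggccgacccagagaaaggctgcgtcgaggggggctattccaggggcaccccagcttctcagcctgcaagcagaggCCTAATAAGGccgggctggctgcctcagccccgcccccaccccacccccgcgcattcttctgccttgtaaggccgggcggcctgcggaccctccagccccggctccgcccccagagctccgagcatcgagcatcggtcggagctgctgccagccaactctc
Ldb3: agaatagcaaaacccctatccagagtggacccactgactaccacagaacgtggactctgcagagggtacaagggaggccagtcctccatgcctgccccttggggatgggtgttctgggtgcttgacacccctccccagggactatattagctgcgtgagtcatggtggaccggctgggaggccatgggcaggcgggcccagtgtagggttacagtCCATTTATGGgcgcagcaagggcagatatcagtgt

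Epididymal genes differed in both directions and by wide margins. Of 40 on the array 18 were counted, and since the filter is on the mean over arrays, a member dim on some arrays was counted where it was bright on others. Over all 40, with no filter, 11 were higher on KO array 2 and 5 lower, with a median difference of 0.10, against 9.69% of all 18820 genes higher and 4.0% lower. In the wild type pair 25 of the 40 were lower on the high-fat array, against 3.13% of all genes. Adam7, a sperm-coating membrane protein, was at 9.35, 3.60, 3.68 and 8.71. The defensin gene Defb39 was at 9.48, 3.95, 3.98 and 7.75, and Cuzd1 at 10.27, 4.32, 4.60 and 9.26. In these, the wild type low-fat array and KO array 2 were high and the remaining arrays dim, so the KO pair differed by at least 32.8-fold, 13.6-fold and 25.2-fold.

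Other members showed the reverse. Defb42, also a defensin, was at 8.69, 4.77, 10.58 and 5.34, and Defb30 at 9.56, 4.59, 8.20 and 5.16, high on KO array 1 and the wild type low-fat array. A further set was bright on the wild type low-fat array alone. The protease inhibitor gene Spint4 was at 11.35, 3.19, 3.25 and 4.43, and the lipocalin gene Lcn5, named after its values were seen, at 11.34, 4.32, 4.89 and 5.45. The order of the arrays thus differed between these named genes, and the amount of epididymal tissue behind each array was not tested.

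Collected by symbol after the values were seen, epididymal gene families had 100 members on the array, of which 27 were higher on KO array 2 and 9 lower with no filter. Of all genes with no filter 9.69% were higher and 4.0% lower. Of the families 35 members were counted. Among the counted genes at least 8-fold higher on KO array 2, 9 of 22 were of these families and 5 were in leukocyte lists. Among the 35 counted genes at least 4-fold lower, 6 were of these families and 4 were contractile genes. For comparison, all 11292 counted genes held 35 of these families and 15 contractile genes. Of the 5590 genes higher by less than 1.5-fold, 3 were of these families and 31 were in leukocyte lists. The share of such families was larger among larger differences, from 3 of 1210 genes between 1.5-fold and 2-fold to 16 of 66 at 4-fold or more. The families in part restate the choice by symbol, and the filter on the mean favours members that were bright on some array.

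Other genes of the male tract stood high on KO array 1 in part, and some were low there. Of 13 markers of the vas deferens and its embryonic duct on the array 6 were lower on KO array 2 and 1 higher with no filter, and of the 7 counted 5 and 1. Of all genes with no filter 4.0% were lower and 9.69% higher, and of all counted genes 4.45% and 14.8%. The duct transcription factor genes Pax8, at 7.36, 5.42, 8.73 and 6.65, and Emx2, at 5.87, 4.85, 6.39 and 4.68, were highest on KO array 1. Of 15 testis and sperm genes on the array 7 were lower and 2 higher with no filter, and of the 10 counted 6 and 2. Prm1, a protamine that packs sperm DNA, was at 8.51, 8.63, 9.98 and 7.36, and Tnp2, a transition protein of spermatids, at 5.79, 6.22, 7.51 and 5.21. The reverse held for Cyp17a1, a steroid-making enzyme of Leydig cells, at 7.14, 5.60, 4.77 and 7.74, and Sycp3, a protein of meiotic chromosomes, at 7.11, 9.31, 6.41 and 8.78. Seminal vesicle secretion genes had another order again, with Svs2 at 7.40, 8.59, 5.95 and 3.94 and Svs5 at 7.61, 8.90, 6.74 and 5.16, lowest on KO array 2. In both genes the KO arrays lay below both wild type arrays. Mmp7 of the same list, not counted and named after its values were seen, was at 5.06, 5.16, 4.28 and 7.25, highest on KO array 2.

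**Figure D3:**
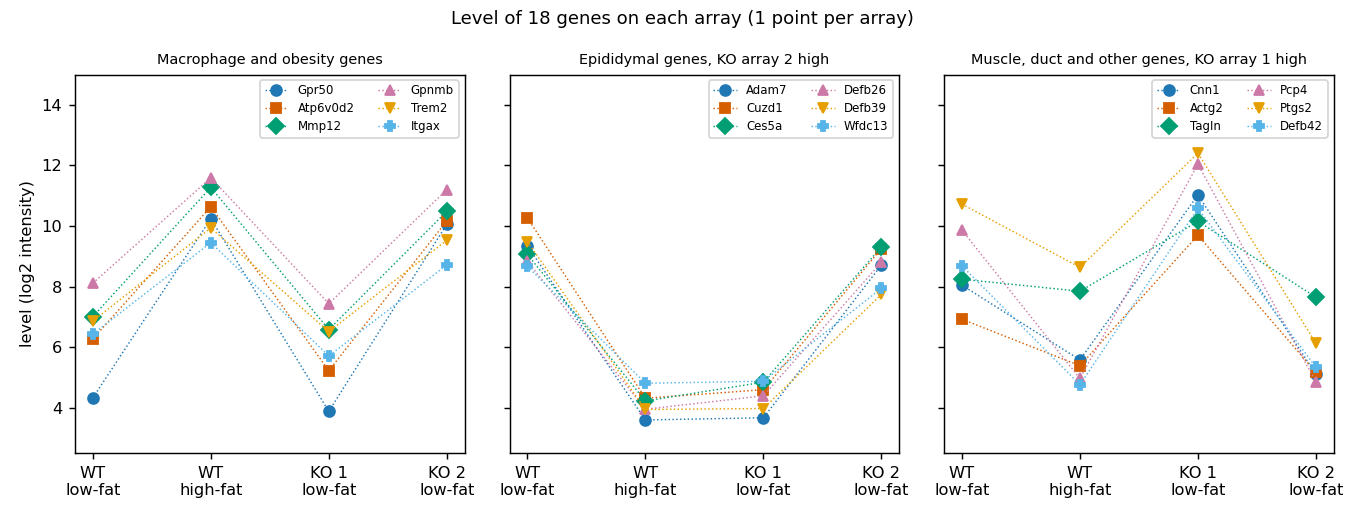
Level (log2 intensity) of 18 genes on each of the 4 arrays, 1 point per array, with dotted lines only to guide the eye. Macrophage and obesity genes (left) are high on the wild type high-fat array and KO array 2, the epididymal genes shown (middle) on KO array 2 and the wild type low-fat array, and the muscle, duct and other genes (right) highest on KO array 1.

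Several of the largest differences lay outside the lists. The largest of all on the higher side was Gpr50, an orphan receptor related to melatonin receptors, at 4.33, 10.24, 3.89 and 10.06. It was dim on KO array 1 and wild type low-fat and bright on the others, a fold of at least 72.0. Tm4sf19, a membrane protein of the tetraspanin-like L6 family, was at 5.51, 9.51, 5.49 and 9.09, and Rgs1, which damps G protein signals in leukocytes, at 5.14, 8.98, 5.11 and 8.47. The interleukin-7 receptor gene Il7r was at 6.19, 9.30, 5.67 and 8.75 and the nucleic acid sensor gene Tlr13 at 6.33, 9.25, 5.96 and 8.98. These followed the order of the macrophage genes.

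Trdn and Slc5a7 were also high on the wild type high-fat array and KO array 2, with KO array 2 the highest. Trdn, which encodes triadin of the sarcoplasmic reticulum, was at 6.81, 9.87, 7.45 and 10.77, and each of its 19 probe sets was higher on KO array 2, by 0.44 to 5.73 with a median of 3.01. Slc5a7, the choline transporter of nerve endings, was at 7.23, 9.85, 7.07 and 10.05. Npy, the gene of neuropeptide Y, was at 7.81, 5.36, 5.37 and 8.45, high on the arrays on which Adam7 was high. Of the 25 highest named genes, KO array 1 lay under its array median in 17, 13 went the same way in the wild type pair and 12 the opposite way.

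On the lower side the largest difference was in Pcp4, a calmodulin-binding peptide of neurons and muscle, at 9.86, 4.97, 12.04 and 4.86. This is a fold of at least 145. Ptgs2, the inducible cyclooxygenase that begins prostaglandin synthesis, was at 10.72, 8.64, 12.41 and 6.14, a 77.1-fold difference. Slco2a1, a prostaglandin transporter, was at 8.82, 8.18, 10.58 and 7.73, and Ptges, the prostaglandin E synthase of the same pathway, at 9.10, 8.68, 10.25 and 8.12. They shared an order, with KO array 1 highest and KO array 2 lowest. Ptges was named after its values were seen.

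Further named genes on the lower side lay in no list. Cited1, a transcriptional co-activator, was at 7.22, 5.73, 9.58 and 4.83, and Mfsd2a, a lysophospholipid transporter, at 8.03, 5.69, 9.09 and 5.10. Gata3, a transcription factor of T cells and of the Wolffian duct, was at 7.22, 5.31, 8.46 and 5.20. These were again highest on KO array 1. Abcg2, a drug and urate exporter, was at 7.79, 7.25, 10.28 and 7.08, the tight junction gene Cldn8 at 6.00, 4.08, 7.64 and 4.66 and the potassium channel gene Kcnj16 at 6.34, 5.23, 8.17 and 5.23. Of the 25 lowest named genes KO array 1 was the highest of the 4 arrays in 24 and KO array 2 the lowest in 15, and 24 went the same way in the wild type pair.

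Markers of other organs were mixed, and most of these lists had few counted genes. Of 12 liver genes 0 were higher and 3 lower on KO array 2, while 11 were higher in the wild type pair. Of all counted genes 14.8% were higher and 4.45% lower in the KO pair, and 7.72% were higher in the wild type pair. The plasma protein genes Apoa2, at 7.78, 9.08, 8.99 and 7.89, and Ahsg, at 7.19, 8.88, 8.22 and 7.25, were higher on KO array 1 than on KO array 2. Gut epithelium genes gave 2 of 7 higher and 2 lower, with the intestinal fatty acid binding gene Fabp2 at 6.78, 4.89, 6.84 and 7.46 and the regenerating gene Reg1 at 5.37, 4.57, 7.31 and 6.39. Skeletal muscle genes gave 1 higher and 2 lower of 7, among them the calcium buffer Pvalb at 4.41, 6.26, 4.79 and 6.65 and the creatine kinase Ckm at 6.33, 5.97, 7.65 and 5.72. Of 2 counted red blood cell genes 1 was lower.

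Counts in organelle and stress lists are read against the 14.8% of all counted genes that were higher and the 4.45% that were lower. Of 17 lysosomal genes 8 were higher and 0 lower on KO array 2, led by the proton pump subunit Atp6v1b2 at 10.28, 11.31, 10.03 and 11.22 and the cathepsin gene Ctsl at 11.04, 11.87, 10.66 and 11.80. Heat shock genes gave 4 of 7 higher, interferon response genes 3 of 11 and immediate-early genes 3 of 17, with 0 lower in each, and the immediate-early share is near that of all genes. The stress factor Atf3 was at 7.21, 9.38, 6.61 and 8.65, and the chaperone Hsph1 at 7.49, 8.09, 6.85 and 7.80. Both were lowest on KO array 1. Hypoxia and glycolysis genes gave 2 of 11 higher, circadian clock genes 1 of 13 higher and 1 lower, and general housekeeping genes 3 of 13 higher. Of 11 glucocorticoid response genes 2 were higher and 1 lower, and the list median lay 0.55 above all counted genes on KO array 1 and 0.54 above on KO array 2 in comparisons with wild type low-fat.

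Respiratory chain, ribosomal and small RNA genes leaned the other way. Of 29 subunits of oxidative phosphorylation 0 were higher and 4 lower on KO array 2, with Ndufa1 of complex I at 8.59, 7.66, 8.52 and 7.60. Of all counted genes 14.8% were higher and 4.45% lower. Of 25 ribosomal protein genes 0 were higher and 5 lower, with Rpl13 at 10.22, 9.73, 10.49 and 9.70. Collected by symbol after the values were seen, small nuclear, nucleolar and Cajal body RNAs had 64 members on the array, of which 0 were higher and 37 lower with no filter. Of all genes with no filter 9.69% were higher and 4.0% lower. Of the 51 counted 35 were lower, with a median difference of −1.09. Snora69, a guide RNA for pseudouridylation, was at 8.52, 6.47, 9.12 and 6.46, and the Y RNA gene Rny1 at 9.47, 7.18, 10.25 and 7.30. In the wild type pair 43 of the 64 were lower on the high-fat array, against 3.13% of all genes. For these RNAs KO array 1 thus went with wild type low-fat and KO array 2 with wild type high-fat.

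The difference of the KO pair was set beside that of the wild type pair, high-fat minus low-fat, which shares no array with it. Of the 1674 genes higher on KO array 2, 680 (40.6%) were also at least 1.5-fold higher in the wild type pair, 946 were within 1.5-fold and 48 (2.87%) were lower. The 680 are 78.0% of the genes higher in the wild type pair. Of the 503 genes lower on KO array 2, 218 (43.3%) were lower in the wild type pair and 19 higher, and the 218 are 50.6% of the genes lower there. By comparison, 7.72% of all counted genes were higher and 3.82% lower in the wild type pair. Across the 11292 genes, which are not independent replicates, Pearson's r of the differences was 0.52 and Spearman's rho 0.70. Without the male tract lists r was 0.63, without the epididymal families as well, a choice made after seeing the data, 0.70, and without the macrophage lists 0.50.

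The genes with the largest opposed difference in the wild type pair were epididymal. Genes at least 2-fold apart in the KO pair were ranked by the size of a wild type difference in the opposite direction. The first 8 were Spint4, Rnase12, Defb23, Cuzd1, Adam7, Defb39, Defb26 and Ces5a. The order is not that of the KO differences, since Spint4 differed by 1.18 in the KO pair, with both KO levels dim. Ces5a, a carboxylesterase secreted in the epididymis, was at 9.07, 4.23, 4.85 and 9.31, and the defensin gene Defb26 at 8.84, 3.96, 4.40 and 8.81. KO array 2 differed from the wild type low-fat array by 0.25 in Ces5a and by −0.03 in Defb26. At 2-fold 30 genes higher on KO array 2 were lower in the wild type pair and 5 the converse, against 200 and 64 that shared a direction. Of all counted genes 2.43% were at least 2-fold higher and 1.39% lower in the wild type pair.

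**Figure D4:**
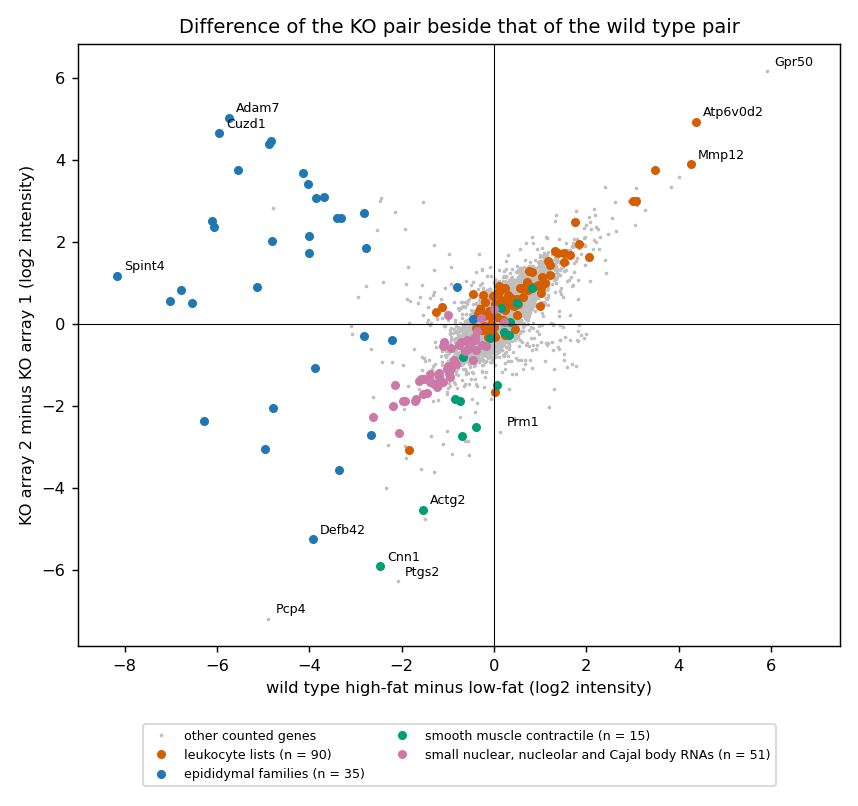
Difference KO array 2 minus KO array 1 against wild type high-fat minus low-fat (both log2 intensity), 1 point per counted gene. Most leukocyte and small RNA genes lie near the diagonal, most epididymal genes lie to the left, from 5.04 for Adam7 to −5.25 for Defb42, and 8 of 15 contractile genes lie at least 1.5-fold below 0.

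A further question is which KO array lay away from both wild type arrays. Of the 612 genes (5.42%) at least 2-fold apart in the KO pair, KO array 1 alone was more than 1.5-fold outside the range of the wild type arrays in 199 (32.5%), KO array 2 alone in 19 (3.1%), both in 9 and neither in 385 (62.9%). Of all counted genes KO array 1 alone was outside in 4.35% and KO array 2 alone in 0.443%. KO array 1 was below the range in 134 of its 199 genes and above it in 65. Of the 464 genes higher on KO array 2, KO array 1 was the lowest of the 4 arrays in 410, and wild type high-fat was the highest in 304. Of the 148 lower genes, KO array 1 was the highest in 131. Wild type arrays of different diets set this range, so it is wider for genes that differ with diet.

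By list, KO array 1 alone was outside in 7 of 7 contractile genes, 7 of 8 mesothelial genes, 6 of 9 matrix genes, 4 of 9 lipid-associated macrophage genes and 3 of 10 macrophage genes, each out of the members at least 2-fold apart. It lay above the range in these contractile genes and below it in these matrix and macrophage genes. The 7 mesothelial genes divided, with KO array 1 below the range in 5 and above it in 2. Of 13 epididymal genes 12 had neither KO array outside. KO array 2 alone was outside in Lcn2 and in Cdkn1a, a cell cycle inhibitor at 8.55, 9.88, 8.92 and 10.56.

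**Figure D5:**
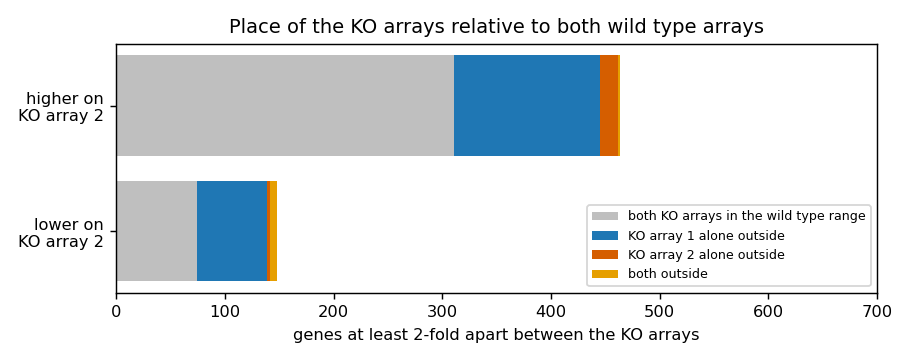
Genes of the KO pair that differed by at least 2-fold, split by whether either KO array lay more than 1.5-fold outside the range of both wild type arrays. Neither lay outside in 311 of 464 higher and 74 of 148 lower genes, and KO array 1 alone did in 134 and 65.

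Some genes were apart in the KO pair while the wild type arrays were alike. The 8 with the smallest wild type difference were Crabp1, Gstm6, Wfdc17, S100a9, Lrrn4, Mal2, Sec14l2 and Emb. Emb, a cell surface partner of transporters, was at 7.86, 7.93, 9.70 and 8.09, and Mal2, a protein of apical transport in epithelia, at 7.83, 7.86, 9.48 and 7.98. The mesothelial gene Lrrn4 was at 7.66, 7.68, 6.54 and 7.64. In these KO array 1 alone stood apart from the other arrays. Wfdc17, a secreted protein of macrophages, was at 10.78, 10.79, 10.22 and 11.25, with the KO arrays on either side of the wild type arrays.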

How the data were processed

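The authors deposited intensities on a linear scale, 1 value for each array and probe set. Per the submitters' processing notes, the arrays had been summarized by the robust multi-array average (RMA) with R 2.15.0. A build and annotation behind the probe sets is not given in the sources used here. Intensities ran from 5.71 to 20092 and were converted to log2 with no further background correction or normalization. RMA treats the 4 arrays together, so their values are not independent of each other. The platform annotation gave 1 symbol for 21218 of 35556 probe sets, several for 1881 and none for 12457. Entrez IDs of 21185 matched the RefSeq table of GRCm38.p6, which changed 0 symbols. Each of 1386 genes with several probe sets was read by its brightest one on average. This left 18820 genes, and the 11292 at or above the 40th percentile of the mean were counted. The number of value columns without a sample was 0.

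KO array 2 minus KO array 1 was described by size, at 1.5-fold and above, with no test, since each side is 1 array, and the number of arrays limits the precision. The 44 gene lists held 700 genes, of which 633 were on the array and 496 were counted. The members and lists were chosen with earlier results of these data known. Named genes left out predicted genes, olfactory and vomeronasal receptors and small RNAs with Mir, Snora, Snord symbols (which kept the Y RNA gene Rny1). They were the 25 highest and 25 lowest differences, Cd1d1 and Cd1d2, and the 4 largest differences of each list. Added to these, among genes at least 2-fold apart, were the 8 with the largest wild type difference opposite to that of the KO pair. The 8 with the smallest wild type difference were added as well. Promoters shown were, by size of difference among members holding the motif, the first 2 smooth muscle genes with a CArG box and the first lipid-associated macrophage or lysosomal gene with an E-box or M-box. Genes named outside this rule are stated as such. Epididymal families and small RNAs were collected by symbol after the values were seen. The counting of genes apart was tried on simulated arrays, in which genes of middle level were changed by known folds over little noise. This checks the computation and says nothing of the error of the real differences. Alternatives covered the filter, the probe set rule, centring and quantile normalization of the arrays, an added intensity of 32, the fold counted and gene lists left out. Python 3.11.15 with pandas 2.3.3, numpy 2.4.6 and matplotlib 3.10.9 was used.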

Additional observations from a re-analysis of the deposited data

How the results depend on the processing

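The 61 genes followed kept their direction under the 6 settings of filter, probe set rule, scaling and added intensity. This says little of their stability, since they were chosen by their differences in these same data. The filter does not enter a gene's difference, and an added intensity cannot turn the direction of a probe set. List medians near that of all genes changed sign in places, adipocyte identity from −0.08 to 0.05 and hypoxia from −0.01 to 0.16 with no filter, and pericyte from 0.01 to −0.04 at the 60th percentile. Centring the arrays on their medians and averaging a gene's probe sets left each count within 1.5 times its value. Quantile normalization gave 1308 higher and 689 lower genes and brought the median difference of all counted genes from 0.14 to 0.06. With no filter on dim genes, 5 of the lists with at least 5 counted genes had most members higher and 1 lower, in place of 8 and 3, rho was 0.55, 102 genes in place of 67 opposed the wild type pair, 31 lay outside the wild type range on KO array 2 alone, and the epididymal list's median came to 0.08 above all genes from 0.90. A filter at the 60th percentile gave 258 lower genes, 5 and 1 lists, r of 0.78, 8 opposed genes, and 123 and 7 genes outside on KO arrays 1 and 2 alone. Adding 32 to each intensity gave 325 lower genes, 5 lists higher, and 94 and 12 genes outside. At 2-fold there were 612 genes apart, 464 higher and 148 lower, and 1 list each way, and requiring 2-fold outside the wild type range left 60 and 6 genes. Without the male tract lists r was 0.63, and without the epididymal families too, a choice made after seeing the data, r was 0.70 with 42 opposed genes. The stricter filter counts fewer genes, and the cause of the other shifts was not tested. No KO array could be left out, since the difference needs both. No paired analysis was possible because the KO arrays are the only replicates and are themselves the sides compared.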

Other observations

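Genes of the X chromosome were higher on KO array 2 more often than autosomal genes, by the chromosomes of the RefSeq table. Of 339 counted X-linked genes 97 (28.6%) were at least 1.5-fold higher and 10 lower, against 14.4% of 10936 autosomal genes higher. At 2-fold 33 were higher and 3 lower, 10.6% apart in all against 5.27% of autosomal genes. The median difference was 0.33 for X-linked and 0.14 for autosomal genes. In the wild type pair, high-fat minus low-fat, the shares 1.5-fold or more higher were 11.2% of X-linked and 7.63% of autosomal genes. These shares were looked at after other values were seen and have no test.

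Probe sets without a gene symbol differed more often than the others. Of 4886 such probe sets at or above the limit of intensity, 725 were at least 1.5-fold higher on KO array 2 and 792 lower, 31.0% in all, and their median difference was −0.09. Probe sets with several symbols gave 72 higher and 61 lower of 1180, or 11.3%, and those with 1 symbol 19.3%. What the unnamed probe sets read was not analysed here.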
